A study of Mus musculus with 12 samples.

Results

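Wound and stress keratins are keratin genes that epidermis switches on after injury or in culture. The 4 members taken here are Krt6a, Krt6b, Krt16 and Krt17, found by symbol among 24537 genes of a table of FPKM (fragments per kilobase of transcript, scaled to sequencing depth), of which 55 are keratin genes. The study made 12 RNA-seq libraries from cultured mouse cells, with 4 groups of 3 libraries, and the same 3 mice gave a culture to each group. All mice carried Pdgfra-creER with an LSL-tdTomato reporter, in which Cre recombinase driven by Pdgfra turns on a red label. No age or sex is stated in the labels.

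The adipose-derived stromal cells (ADSCs) were Pdgfra-positive cells of subcutaneous fat, grown in DMEM with 10% serum. The induced stratified epithelial progenitor cells (iSEPs) were epithelial cells converted from ADSCs, either in culture (in vitro iSEPs) or within the animal and cultured afterwards (in vivo iSEPs). Keratinocytes came from back skin. These last 3 groups, called epithelial below, grew in serum-free keratinocyte medium, so medium and cell type cannot be told apart in any comparison with ADSCs. The labels do not name the agents that drove conversion. The comparisons with ADSCs share the same 3 control libraries.

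Keratins build the intermediate filaments of epithelial cells, and each filament subunit pairs a type I with a type II protein. Krt6a and Krt6b encode type II keratins, and Krt16 and Krt17 encode type I keratins that can pair with them. In resting skin these genes are active mainly in hair follicles, nail and thick skin of the paw. After wounding, keratinocytes at the wound edge switch them on as they begin to migrate, and cultured keratinocytes do the same. Mutations in the human counterparts of all of them cause pachyonychia congenita, a disorder of nails and palmoplantar skin.

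Each library held an estimated 21010000 to 27770000 reads in the genes of the table. The labels were checked against marker genes. The summed FPKM of 8 epidermal markers was 13.1 to 15.1 in ADSCs and 12104 to 26852 in the 9 epithelial libraries, while 10 stromal markers summed to 8873 to 11290 in ADSCs and to 30.2 to 335 in the epithelial libraries. Among the epithelial libraries, mouse 3 of the in vivo iSEPs was unlike the others, with the lowest epidermal sum (12104) and the highest sum of 6 simple epithelial markers (249, led by Krt8 at 103 FPKM, against 9.36 to 169 in the other 8). Some of the differences, ranges, ratios and correlations that it moves are also given without it. Others, among them the rises against ADSCs, are given only with it. For Krt6b in in vivo iSEPs that rise was 4.94 on the log2 scale with it and 6.11 without it.

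Krt6a and Krt6b lie next to each other on mouse chromosome 15 and are close copies. In mm10, Krt6b spans chr15:101676023-101680289 and Krt6a chr15:101689928-101694305, both on the minus strand and 9639 bases apart. Their coding sequences (GENCODE M21 transcripts) differ at 37 of 1659 aligned bases, an identity of 97.8%, with a longest identical run of 280 bases. Of all stretches of 50 bases in the Krt6a transcript, 49.5% also occur in a transcript of another gene, and 50.1% of those of Krt6b do. Reads from the shared stretches cannot be assigned with certainty to either gene, and the sources used here do not say how they were counted. The 90 bases of coding exon 4 in which the copies differ most are printed to show what separates them, with the 12 differing bases in capitals. They lie at chr15:101692484-101692573 for Krt6a and chr15:101678303-101678392 for Krt6b, minus strand.
Krt6a: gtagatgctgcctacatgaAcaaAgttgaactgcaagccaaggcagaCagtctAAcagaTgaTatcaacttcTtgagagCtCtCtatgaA
Krt6b: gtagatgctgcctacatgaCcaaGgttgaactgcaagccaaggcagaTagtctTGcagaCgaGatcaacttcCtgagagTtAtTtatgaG

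Krt16 (chr11:100246091-100248902) and Krt17 (chr11:100256215-100261029) are also neighbours, 7313 bases apart on the minus strand of chromosome 11, but they are less alike. Their coding sequences share 78.2% of 1282 aligned bases. Krt16 is closer to Krt14, the main type I keratin of basal cells, at 86.5%. Only 3.99% of the 50-base stretches of Krt17 occur in another gene, against 37.6% of those of Krt16, whose largest overlap (382 of 1516 stretches) is with the locus Gm11597. The 90 bases of coding exon 5 that differ most between them hold 30 differences, in capitals, at chr11:100247136-100247225 for Krt16 and chr11:100257777-100257866 for Krt17, minus strand.
Krt16: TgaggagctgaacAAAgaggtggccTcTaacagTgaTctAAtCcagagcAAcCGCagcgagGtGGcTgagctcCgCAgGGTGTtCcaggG
Krt17: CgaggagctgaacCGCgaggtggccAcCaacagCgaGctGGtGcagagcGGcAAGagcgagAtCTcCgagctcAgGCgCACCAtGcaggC

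The type II member Krt6a was abundant in each epithelial group. In ADSCs it was at 0.782, 0.773 and 1.48 FPKM in mice 1, 2 and 3. In vitro iSEPs had 1516, 2094 and 3090 FPKM, in vivo iSEPs 2016, 1474 and 1340, and keratinocytes 2061, 2401 and 2703. Every epithelial library was far above every ADSC library. The epithelial groups overlapped except that all 3 in vivo iSEP libraries lay below all 3 keratinocyte libraries. Between those 2 groups 27.8% of genes did not overlap. Over the 9 epithelial libraries the highest Krt6a value was 2.31 times the lowest. Its SD within in vitro iSEPs, 0.514 on the log2(FPKM + 1) scale, was larger than that of 91% of 8140 genes with a mean of at least 5 FPKM there.

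Its close copy Krt6b was low and uneven. ADSCs had 0.014, 0.046 and 0.080 FPKM in mice 1, 2 and 3, an estimated 1, 3 and 5 reads. In vitro iSEPs had 164, 47.9 and 148 FPKM, in vivo iSEPs 151, 33.5 and 5.36, and keratinocytes 44.6, 12.7 and 15.7. Among the epithelial libraries 3 were high, the in vitro iSEPs of mice 1 and 3 and the in vivo iSEPs of mouse 1, and the in vivo iSEPs of mouse 3 were lowest. The span was 30.5-fold over the 9 libraries and 12.9-fold without the in vivo iSEPs of mouse 3. In in vivo iSEPs the SD of Krt6b on the log2(FPKM + 1) scale was 2.29, larger than that of 99.6% of the 8156 genes with a mean of at least 5 FPKM in that group, whose median SD was 0.239. In keratinocytes, which do not hold the library of in vivo iSEP mouse 3, it was 0.929, larger than that of 99.6% of 8212 genes.

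The type I member Krt16 shared its 3 high libraries with Krt6b, at a higher level. It was at 0.282, 0.306 and 0.138 FPKM in the ADSCs of mice 1, 2 and 3. In vitro iSEPs had 830, 301 and 868 FPKM, in vivo iSEPs 765, 246 and 211, and keratinocytes 255, 164 and 176. The 3 libraries high in Krt6b were also the 3 highest in Krt16, at 765 FPKM or more, while the other 6 lay between 164 and 301.

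Krt17, which in skin also marks hair follicle and other appendage epithelium, was the most abundant member. It was at 3.17, 2.98 and 3.20 FPKM in the ADSCs of mice 1, 2 and 3. In vitro iSEPs had 5002, 5381 and 6416 FPKM, in vivo iSEPs 4793, 5905 and 3386, and keratinocytes 3644, 3589 and 4065. It ranked between place 3 and place 5 among all genes by FPKM in each epithelial library. Its values in in vitro iSEPs did not overlap those of keratinocytes, as was so for 40.8% of genes. Its span over the 9 libraries was 1.9-fold.

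FPKM is scaled per length, so the levels were set side by side. Stretches shared with other genes make those of Krt6a, Krt6b and Krt16 less certain than that of Krt17. The order Krt17, Krt6a, Krt16, Krt6b held in all 12 libraries. Over the epithelial libraries the ranges of neighbours in that order did not overlap: Krt17 was at 3386 to 6416 FPKM, Krt6a at 1340 to 3090, Krt16 at 164.3 to 868 and Krt6b at 5.36 to 163.5.

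**Figure D1:**
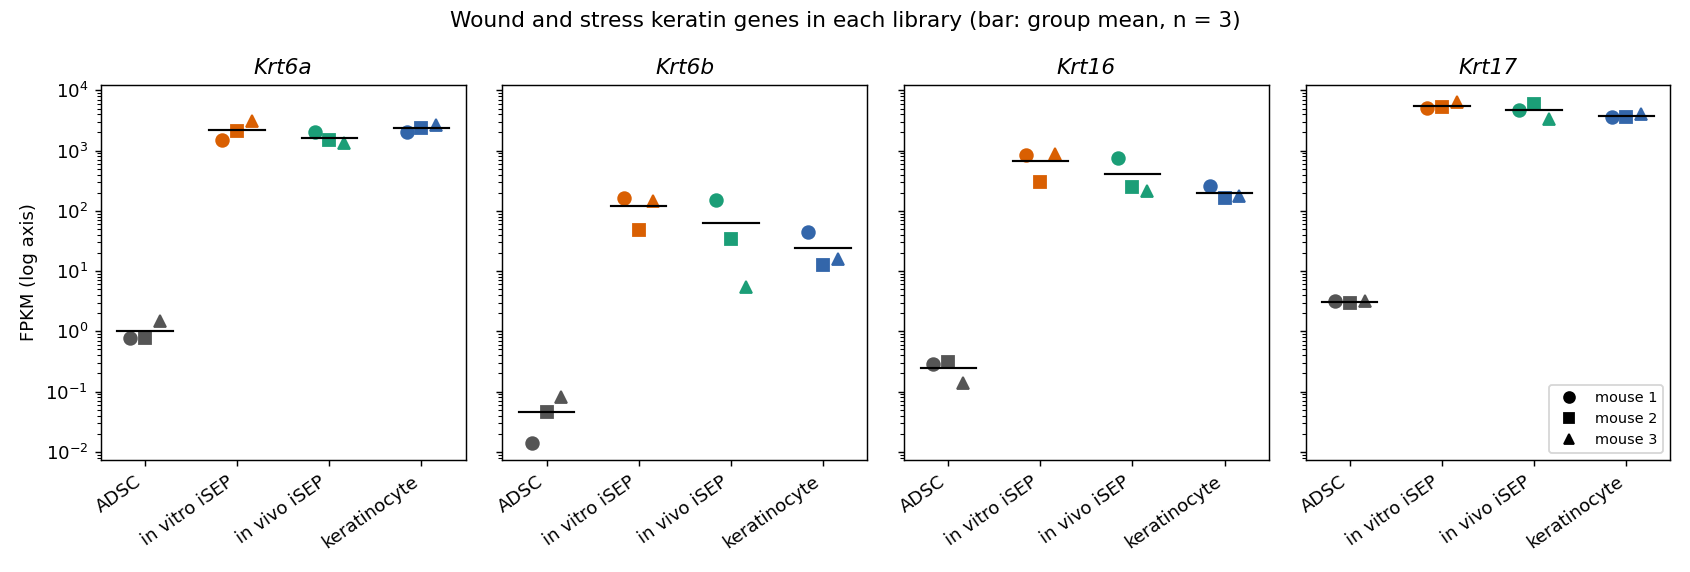
FPKM on a log axis of Krt6a, Krt6b, Krt16 and Krt17 in each of 12 libraries, by group, with circle, square and triangle for mice 1, 2 and 3 and a bar for the group mean (n = 3). All epithelial libraries lie far above ADSCs, and Krt6b and Krt16 spread more within groups than Krt6a and Krt17 (Krt6b in in vivo iSEPs runs from 5.36 to 151 FPKM).

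Against ADSCs all 4 genes rose in each epithelial group (limma on log2(FPKM + 1), Benjamini-Hochberg over 12364 genes). The background is high: 32.1% of genes were called higher for in vitro iSEPs, 27.6% for the in vivo iSEPs and 32.8% for keratinocytes. Each member also did not overlap between ADSCs and any epithelial group, as was so for 63.7%, 54.2% and 69.5% of genes in the same order. The counts of called members are therefore a description, since Krt6a, Krt6b and Krt16 also met the filter on low values only through the epithelial libraries. In bulk RNA, more cells with a transcript and more of it per cell cannot be told apart.

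The log2 rise was largest for Krt17 and Krt6a in each comparison. Krt17 rose by 10.40 ± 0.20 (SE) in in vitro iSEPs (adjusted p = 5.63e-11 by limma), by 10.12 in the in vivo iSEPs and by 9.84 in keratinocytes. Krt6a rose by 10.07, 9.64 and 10.22 in that order. Krt16 rose by 8.92 ± 0.49 in in vitro iSEPs (adjusted p = 7e-08), by 8.11 in the in vivo iSEPs and by 7.30 in keratinocytes. Krt6b rose by 6.67 ± 0.93 in in vitro iSEPs (adjusted p = 0.000116), by 4.94 in the in vivo iSEPs (adjusted p = 0.00113) and by 4.39 in keratinocytes (adjusted p = 0.00222). The median of all genes in these comparisons was 0.148, 0.136 and 0.184.

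The log2(FPKM + 1) scale holds down the rise of genes near 0, so ratios of mean FPKM tell the size differently. For Krt16 the ratio to ADSCs was 2753 for in vitro iSEPs, 1682 for the in vivo iSEPs and 820 for keratinocytes. Krt16 had 34 reads over the 3 ADSC libraries, and the ratio of its summed reads had a 95% counting interval of 1882 to 3799, 1153 to 2326 and 580 to 1172 in that order. For Krt6b it was 2569, 1354 and 522, but 9 reads over the 3 ADSC libraries carry these ratios. The ratio of summed Krt6b reads had a 95% counting interval of 1345 to 5587 for in vitro iSEPs, 697 to 2896 for the in vivo iSEPs and 285 to 1183 for keratinocytes, which covers counting error alone. For Krt17 the ratio of summed reads was 1790, 1498 and 1209 in that order. In both kinds of iSEP it lay inside the Krt6b interval, and in keratinocytes above it.

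The trace of these keratins in ADSCs was of the same order as that of other epidermal genes. The ADSC mean as a percent of the keratinocyte mean was 0.0424% for Krt6a, 0.0827% for Krt17, 0.122% for Krt16 and 0.192% for Krt6b. For the 8 epidermal markers it ran from 0.0492% (Krt14) to 0.167% (Trp63).

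Among the epithelial groups no member passed the test in any of the 3 comparisons, where 11.3% of genes were called between in vitro iSEPs and keratinocytes, 7.48% between in vivo iSEPs and keratinocytes and 1.63% between both kinds of iSEP. An unadjusted p under 0.05 by limma was found for 3 members between in vitro iSEPs and keratinocytes (Krt6b, Krt16 and Krt17). It was found for 1 between in vivo iSEPs and keratinocytes (Krt6a) and for 0 between both kinds of iSEP. The share of all genes at that threshold was not computed, so these counts cannot be set against the shares above. The confidence intervals of the members are wide, so the groups are not shown to be alike.

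Krt16 came closest, with 666 ± 317 FPKM in in vitro iSEPs and 198 ± 49.6 in keratinocytes (SD, n = 3). The log2 difference was 1.62 (95% interval 0.55 to 2.70, adjusted p = 0.0556 by limma), and the groups did not overlap, as in 40.8% of genes. With the mouse as a replicate block, limma called Krt16 higher in in vitro iSEPs (adjusted p = 0.0354). Within mice 1, 2 and 3 the log2 differences were 1.70, 0.87 and 2.30, all in 1 direction. Without the in vitro iSEPs of mouse 2 the difference was 2.12 (adjusted p = 0.0185 by limma). Without those of mouse 1 it was 1.39 (adjusted p = 0.145 by limma), and without those of mouse 3 it was 1.36 (adjusted p = 0.169 by limma). With mouse 3 left out of every group it was 1.28 (adjusted p = 0.292 by limma).

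Krt6b was at 120 ± 62.8 FPKM in in vitro iSEPs and 24.3 ± 17.6 in keratinocytes. The log2 difference of 2.28 had an interval of 0.23 to 4.33 (adjusted p = 0.137 by limma). It was positive within each mouse, at 1.85, 1.83 and 3.16. For Krt17 the difference was 0.57 (0.12 to 1.01, adjusted p = 0.0958 by limma), with 5600 ± 732 FPKM in in vitro iSEPs and 3766 ± 260 in keratinocytes. It was positive within each mouse, at 0.46, 0.58 and 0.66, and fell to 0.24 under quantile normalization (adjusted p = 0.283 by limma). Krt6a did not go with the other members here, at -0.15 (-0.72 to 0.42), and the sign turned to 0.10 without the in vitro iSEPs of mouse 1.

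Between in vivo iSEPs and keratinocytes the spread of in vivo iSEPs was the larger. Krt16 stood at 407 ± 310 FPKM, a log2 difference of 0.81 (interval -0.27 to 1.88), positive within each mouse at 1.58, 0.58 and 0.26. Krt6b was at 63.2 ± 77.1 FPKM with a log2 difference of 0.56 (-1.50 to 2.61). That value rests on mouse 1: without the in vivo iSEPs of mouse 1 it was -0.56, and without those of mouse 3 it was 1.73. Krt6a had a log2 difference of -0.58 (-1.16 to -0.01, adjusted p = 0.215 by limma), with 1610 ± 358 FPKM against 2389 ± 321, and the groups did not overlap, as in 27.8% of genes. Krt17 had 0.28 (-0.16 to 0.73). Without the in vivo iSEPs of mouse 3 the differences were 1.15 for Krt16, -0.46 for Krt6a and 0.50 for Krt17, and 0 members were called by limma. Krt16 was at 0.23 without the in vivo iSEPs of mouse 1, and Krt17 at 0.099 without those of mouse 2 and 0.17 under quantile normalization.

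Between both kinds of iSEP all 4 point estimates were lower in in vivo iSEPs. The log2 differences were -0.43 for Krt6a, -1.72 for Krt6b, -0.82 for Krt16 and -0.28 for Krt17, and no member was free of overlap, where 15% of genes were. The library of mouse 3 carried much of it. Within mouse 3 Krt6b differed by -4.55 and Krt16 by -2.04, against -0.12 and -0.12 within mouse 1 and -0.50 and -0.29 within mouse 2. Without the in vivo iSEPs of mouse 3 the differences were smaller, at -0.55 for Krt6b, -0.47 for Krt16, -0.31 for Krt6a and -0.066 for Krt17.

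Other cell markers moved with some of these comparisons. The 6 leukocyte markers summed to 8.55 to 22.5 FPKM in iSEPs and 2.65 to 3.96 in keratinocytes, almost all of it Cd68, a lysosomal protein gene, and 3 of the 6 were at 0 in all libraries of each epithelial group. The stromal sum was 109 to 335 FPKM in in vitro iSEPs, 30.2 to 189 in the in vivo iSEPs and 43.2 to 53.1 in keratinocytes. Their part in the keratin differences was not tested. Another 8 markers of hair follicle epithelium were Krt75, Krt25, Krt27, Krt28, Krt71, Krt72, Krt73 and Lgr5. They summed to less than 1 FPKM in each epithelial library (0.358 to 0.956). Whether these markers cover the follicle cells that express the members was not tested.

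**Figure D2:**
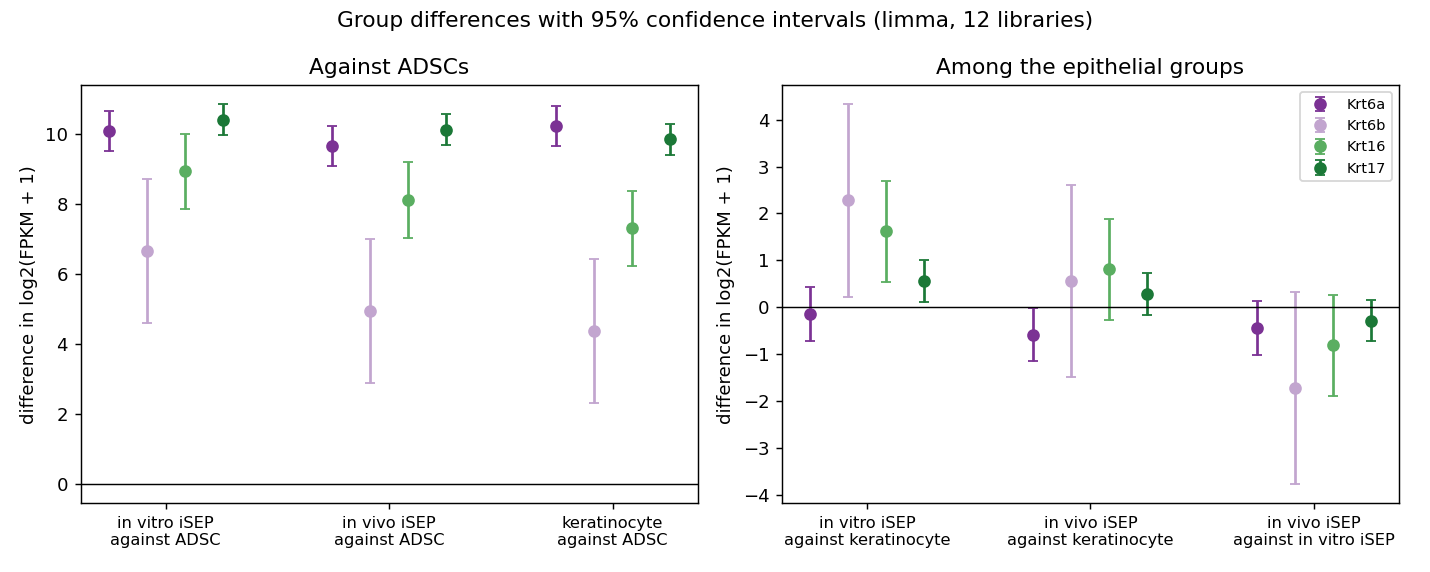
Difference in log2(FPKM + 1) for each member with its 95% confidence interval from limma, against ADSCs on the left and among the epithelial groups on the right (n = 3 libraries a group). The left intervals lie far above 0, and the right ones are widest for Krt6b (0.23 to 4.33 between in vitro iSEPs and keratinocytes).

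The members were also set against the other keratins of the same library, a measure that does not depend on scaling between libraries. In the epithelial libraries keratin genes made up 4.05% to 8.85% of all FPKM, and nearly all of that was Krt5, Krt14 and the 4 members. Krt5 and Krt14 form the standing filament pair of basal keratinocytes. The 4 members took 26, 31 and 32 percent of keratin FPKM in the in vitro iSEPs of mice 1, 2 and 3. They took 28.4%, 31.9% and 34.5% in the in vivo iSEPs and 23.3%, 23.3% and 24.4% in keratinocytes. All 6 iSEP libraries lay above all 3 keratinocyte libraries.

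The mean share was 29.7% ± 3.23 in in vitro iSEPs, 31.6% ± 3.07 in the in vivo iSEPs and 23.6% ± 0.623 in keratinocytes (SD, n = 3). An exact permutation test of the F statistic over the 9 libraries gave p = 0.0357, or 0.0595 adjusted over the 5 ratios tested, and the smallest p this design allows is 0.00357. In reads rather than FPKM the shares were 30.5%, 32.8% and 26.1%, with an exact permutation p of 0.132. FPKM of Krt14 rests on a listed transcript of 1112 bases, shorter than the 1698 of its main GENCODE transcript. Whether this changes the weight of that gene in an FPKM total was not tested.

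Krt17 made up most of the gap. It took 17.3% to 21.3% of keratin FPKM in in vitro iSEPs, 17.6% to 24.6% in the in vivo iSEPs and 13.5% to 14.2% in keratinocytes. Krt16 took 1.2% to 2.87%, 1.02% to 2.81% and 0.614% to 0.99% in that order. Krt6a showed no such gap, at 5.24% to 9.39%, 6.14% to 9.36% and 7.99% to 9.46%. Krt14 went the other way, at 32.9% to 35.4%, 29% to 39.3% and 41.7% to 43%. Krt5 took 34.3% to 37%, 23.8% to 38.6% and 32.8% to 34%. Its lowest value, 3410 FPKM or 23.8%, was in the in vivo iSEPs of mouse 3, the library with the highest member share (34.5%). In that library Krt6a (1340 FPKM) and Krt17 (3386 FPKM) were also at their lowest among the epithelial libraries.

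The log2 ratio of the 4 members to Krt5 plus Krt14 was -1.23 ± 0.22 in in vitro iSEPs, -1.09 ± 0.23 in the in vivo iSEPs and -1.68 ± 0.05 in keratinocytes (exact permutation p = 0.0214, adjusted 0.0536). In reads the difference between in vivo iSEPs and keratinocytes was 0.47 in place of 0.58 (exact permutation p = 0.121, adjusted 0.220). The balance between type II and type I members, Krt6a plus Krt6b over Krt16 plus Krt17, was -1.46 ± 0.32, -1.60 ± 0.37 and -0.72 ± 0.14 on the log2 scale (exact permutation p = 0.0214, adjusted 0.0536). All 6 iSEP libraries lay below all 3 keratinocyte libraries in this balance (-2.03 to -1.17 against -0.89 to -0.64). None of the 5 ratios passed after adjustment. Permuting only within each mouse, where the smallest possible p is 0.0278, gave an exact permutation p of 0.0833 for the type balance (adjusted 0.104) and of 0.0278 for the share and the ratio to Krt5 plus Krt14 (adjusted 0.0694 each). Without the in vivo iSEPs of mouse 3 the mean share in that group was 30.2%, and the adjusted exact permutation p of the share, of the ratio to Krt5 plus Krt14 and of the type balance was 0.113 each. Without those of mouse 1 instead, these 3 ratios passed, at 0.0357, 0.0357 and 0.0417 in the same order.

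Within each type the ratios spread widely. Krt6b was 10.8%, 2.29% and 4.8% of Krt6a in the in vitro iSEPs of mice 1, 2 and 3, 7.47%, 2.27% and 0.4% in the in vivo iSEPs and 2.16%, 0.53% and 0.582% in keratinocytes. The log2 ratio of Krt6a to Krt6b gave an exact permutation p of 0.225 over the groups, and that of Krt16 to Krt17 gave 0.368. In mouse 1 Krt6b made up the largest percent of Krt6a in each of the 3 epithelial groups.

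**Figure D3:**
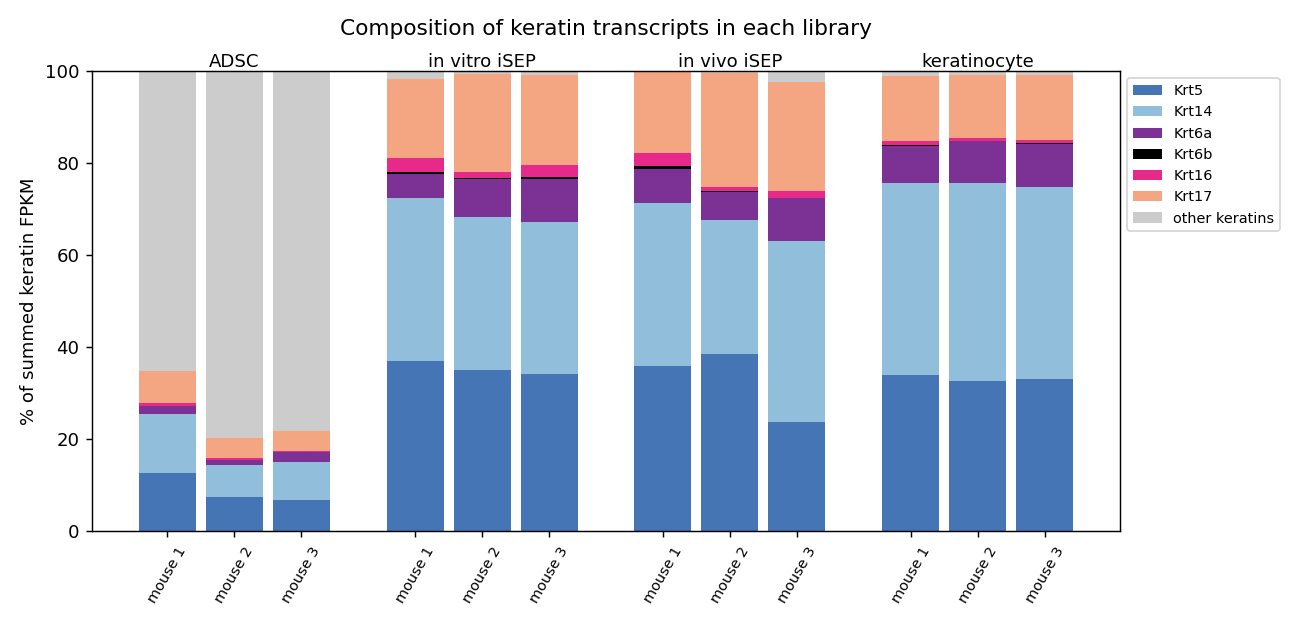
Percent of summed keratin FPKM taken by Krt5, Krt14, the 4 members and all other keratins in each of the 12 libraries. The members take 23.3% to 24.4% in keratinocytes and 26% to 34.5% in iSEPs, and 5.82% to 9.43% of a very small total in ADSCs, where other keratins prevail.

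Over the 9 epithelial libraries, Pearson's r of log2(FPKM + 1) was highest for Krt6b with Krt16, at 0.91, and was 0.89 after group means were removed. For Krt6a with Krt6b it was 0.20 (0.30 after group means were removed), for Krt6a with Krt16 0.07 (0.34) and for Krt6a with Krt17 0.16 (0.53). For Krt6b with Krt17 it was 0.70 (0.50) and for Krt16 with Krt17 0.63 (0.22). Without the in vivo iSEPs of mouse 3, an alternative chosen after seeing the data, Krt6b with Krt16 had 0.98, while the 3 pairs with Krt6a turned negative, at -0.18 with Krt6b, -0.085 with Krt16 and -0.13 with Krt17. These are descriptions over 9 or 8 libraries from 3 mice and 3 groups, and libraries share culture and depth.

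**Figure D4:**
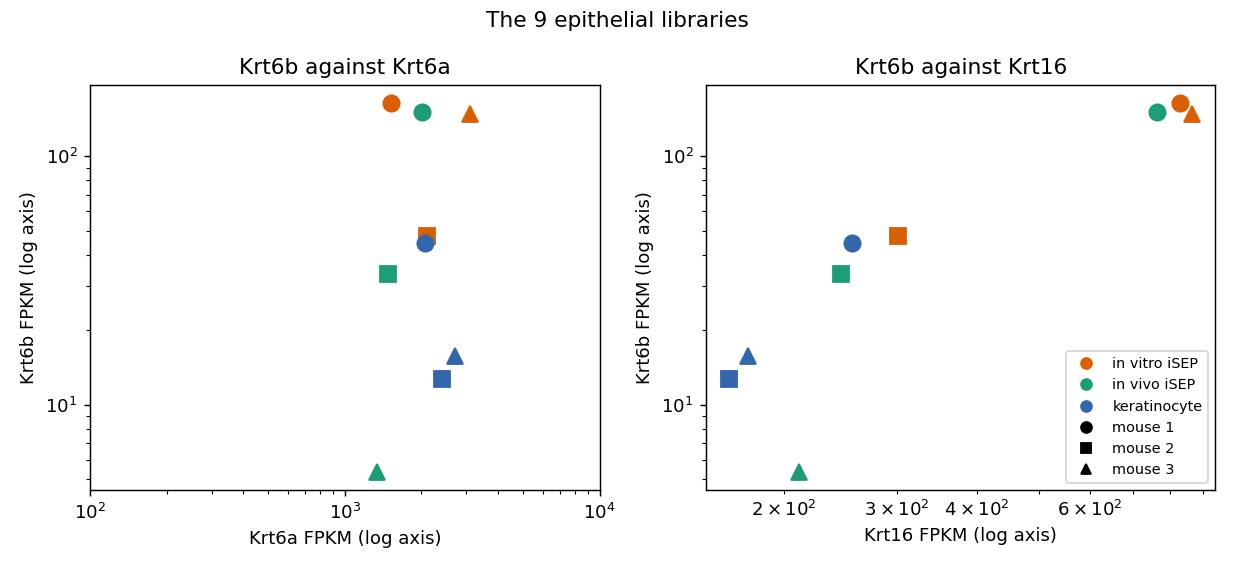
Krt6b against Krt6a (left) and against Krt16 (right) in the 9 epithelial libraries, FPKM on log axes, coloured by group with 1 symbol per mouse. Krt6b spans 5.36 to 164 FPKM while Krt6a stays between 1340 and 3090, and the 3 libraries highest in Krt6b are the 3 highest in Krt16.

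Among 8255 genes with a mean of at least 5 FPKM over the epithelial libraries, the 5 most like each member were named by the same measure. Krt16 was most like Dsg1b (r = 0.97), a desmosomal cadherin of differentiating layers, Gm5617 (0.96), the late cornified envelope gene Lce3c (0.95), the transcription factor gene Pitx1 (0.94) and Rab3gap1 (0.94). Dsg1b was at 28.3, 9.15 and 27.4 FPKM in the in vitro iSEPs of mice 1, 2 and 3, at 18.5, 5.66 and 6.55 in the in vivo iSEPs and at 8.23, 5.99 and 5.6 in keratinocytes. Pitx1 was at 52.3, 19 and 63.5 in in vitro iSEPs, 55.5, 14.2 and 2.03 in the in vivo iSEPs and 6.07, 1.49 and 0.979 in keratinocytes. Both were high in the same 3 libraries as Krt16.

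Krt6b was most like AW549877 (r = 0.98), Pccb (0.97), the small nucleolar RNA host gene Snhg3 (0.97), Adk (0.95) and Nvl (0.95), and Krt16 held place 26 among these genes. Krt6a was most like Irf2bp1 (0.97), Slc35a4 (0.97), the RNA polymerase subunit gene Polr2f (0.97), Zfp523 (0.96) and Utp20 (0.96), and Krt6b held place 3811. Krt17 was most like Phpt1 (0.97), Eef1g (0.96), Naf1 (0.95), Ecsit (0.95) and Sh3bp1 (0.94). Of these 20 names none was shared between members. With 9 libraries and 8255 genes, values of this size are a ranking and no more.

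The keratins of differentiating layers were high with Krt16 in in vitro iSEPs, in mice 1 and 3, but not in in vivo iSEPs. Krt10 was at 92.3, 2.95 and 34.9 FPKM in the in vitro iSEPs of mice 1, 2 and 3, at 5, 21.9 and 3.09 in the in vivo iSEPs and at 0.702 to 1 in keratinocytes. Its partner Krt1 was at 167, 1.17 and 21.7, at 7.37, 37.4 and 0.979, and at 0.355 to 1.25. Krt10 was called higher in in vitro iSEPs than in keratinocytes (log2 difference 3.71, adjusted p = 0.0302 by limma), as were 5.22% of all genes. Krt1 was not (3.65, adjusted p = 0.104 by limma). Neither was called between in vivo iSEPs and keratinocytes (adjusted p = 0.199 and 0.327 by limma). In the in vivo iSEPs both were highest in mouse 2, where Krt16 was at 246 FPKM, and not in mouse 1, where Krt16 was at 765.

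Neighbouring genes stood at very different levels. On chromosome 15 the row next to Krt6b on its other side, Gm5478, had a mean of at most 1.39 FPKM in any group, while Krt5, which lies 12765 bases past Krt6a, was at 7489 to 10274 in the epithelial groups. On chromosome 11 Krt42, which starts 1853 bases past Krt17, was at 10.1 ± 8.8 FPKM in in vitro iSEPs, 3.37 ± 1.41 in the in vivo iSEPs and 7.12 ± 2.02 in keratinocytes. Krt14 lies 40061 bases on the other side of Krt16 and was at 7399 to 11370. Krt75, a hair follicle keratin of the Krt6 family, stayed at or below 0.251 FPKM on average in each group.

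**Figure D5:**
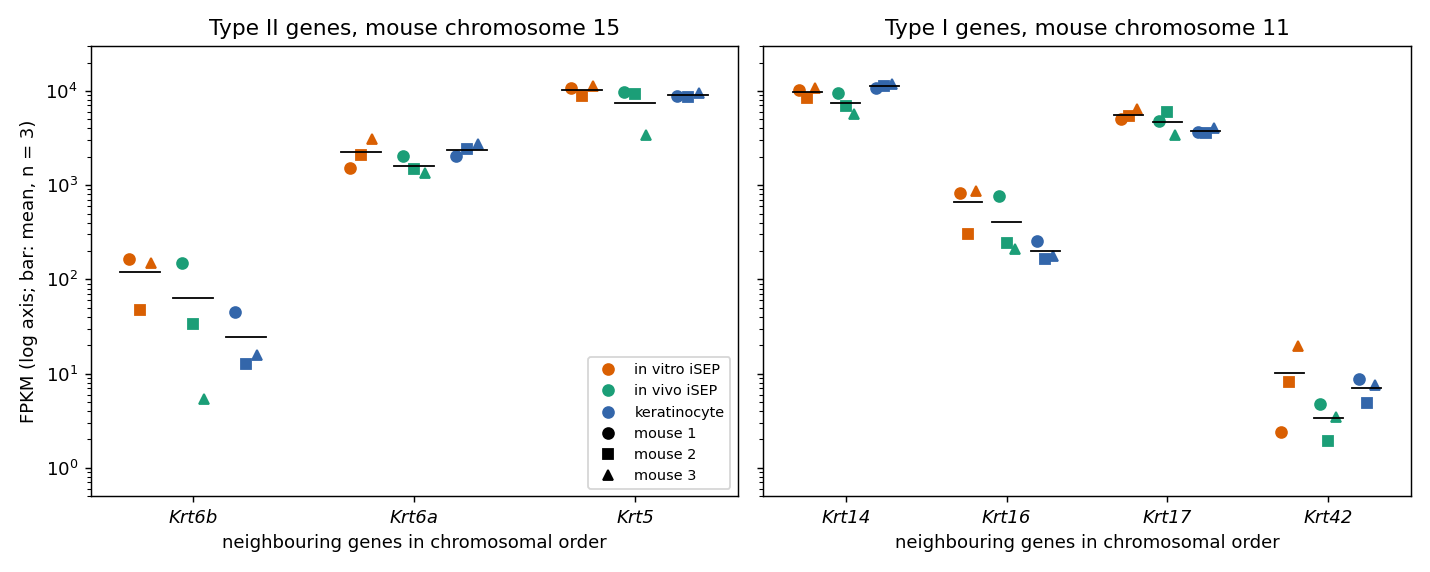
FPKM on a log axis of the members and the keratin genes beside them, in chromosomal order, for each epithelial library with a bar for the group mean (n = 3). Levels run from Krt42 at 3.37 to 10.1 FPKM on average, next to Krt17 at 3766 to 5600, and Krt6b lies beside Krt6a and far below it.

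Beyond the members, 16 other keratin genes passed the filter. Against ADSCs 9 rose and 2 fell for in vitro iSEPs, 6 and 2 for the in vivo iSEPs and 10 and 2 for keratinocytes. Among all genes 32.1%, 27.6% and 32.8% rose in that order, and 21.7%, 20% and 20.7% fell. Between in vitro iSEPs and keratinocytes 1 was higher and 1 lower, against 5.22% and 6.12% of all genes. The only other keratin with a mean of at least 50 FPKM in some group, besides Krt5, Krt14 and Krt1, was Krt7, a simple epithelial keratin, at 67.2 ± 54 FPKM in in vitro iSEPs, 19.7 ± 23 in the in vivo iSEPs and 87.2 ± 34.4 in keratinocytes.

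Genes of wound-activated epidermis moved in both directions against ADSCs. Among all genes, 53.8%, 47.6% and 53.5% were called in either direction against ADSCs, for the 3 epithelial groups as listed above, and 21.7%, 20% and 20.7% fell. Of 43 wound genes that passed the filter, 19 rose and 10 fell in in vitro iSEPs (list median 1.08 on the log2 scale), 17 rose and 11 fell in in vivo iSEPs (0.84), and 23 rose and 9 fell in keratinocytes (1.48). The risers were led by the cornified envelope precursors Sprr1b (236 ± 108 FPKM in in vitro iSEPs against 0.082 ± 0.0407) and Sprr1a (375 ± 267 against 1.03 ± 0.498). Lama3 and Lamb3, which encode laminin chains of the epidermal basement membrane, rose as well. Lama3 was at 253 ± 13.9 FPKM in in vivo iSEPs against 0.193 ± 0.0422 and Lamb3 at 207 ± 28.9 against 0.286 ± 0.0776. Among those that fell were genes that stromal cells also express. Fn1 (fibronectin) was at 94.1 ± 28.9 FPKM in in vitro iSEPs against 2038 ± 469 in ADSCs, and Has2, a hyaluronan synthase gene, at 0.174 ± 0.189 in in vivo iSEPs against 21 ± 3.

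Against keratinocytes more of the called wound genes were lower than higher in both kinds of iSEP, as was so among all called genes. Some went each way. The list median was -0.27 on the log2 scale in in vitro iSEPs and -0.49 in in vivo iSEPs. For all genes it was -0.017 and -0.053. In in vitro iSEPs 2 were higher and 4 lower of 43, against 5.22% and 6.12% of all genes. In in vivo iSEPs 1 was higher and 6 lower, against 3.41% and 4.08%. Between both kinds of iSEP 0 were higher and 1 lower in in vivo iSEPs, against 0.679% and 0.946%. The connexin gene Gjb2, whose protein increases at wound edges, was at 27.2 ± 3.16 FPKM in in vitro iSEPs, 13.4 ± 4.96 in the in vivo iSEPs and 2.83 ± 0.728 in keratinocytes (log2 difference 2.89, adjusted p = 0.000479, and 1.86, adjusted p = 0.00507, by limma). Gjb6 was higher in in vitro iSEPs than in keratinocytes (2.76 ± 0.652 against 0.33 ± 0.056) and than in in vivo iSEPs (0.596 ± 0.248). The antimicrobial gene Lcn2 was lower in both kinds of iSEP, at 2.89 ± 0.867 and 1.03 ± 1.39 FPKM against 38.6 ± 17.6. The alarmin gene S100a8 was lower in in vivo iSEPs (6.03 ± 4.75 against 67.2 ± 18.9), and the cytokine gene Il1a in in vitro iSEPs (1.48 ± 1.63 against 11 ± 3.56).

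Transcription factors and receptors reported to act on wound keratin genes were taken as a further list of 31 genes, of which 28 passed the filter. Against ADSCs 16 rose and 2 fell in in vitro iSEPs, 11 and 4 in the in vivo iSEPs, and 11 and 5 in keratinocytes. Among all genes 32.1%, 27.6% and 32.8% rose in that order, and 21.7%, 20% and 20.7% fell. The epidermal factor genes Trp63 and Klf5 were among the leading risers in each. Fosl1, an AP-1 subunit gene, fell in in vivo iSEPs (6.9 ± 2.06 against 15.4 ± 5.4 FPKM) and in keratinocytes (3.33 ± 0.0628). Stat3 fell in in vitro iSEPs (30.6 ± 3.75 against 55.2 ± 8.27) and in in vivo iSEPs (24.5 ± 4.55), and Rara fell in in vitro iSEPs (4.08 ± 0.668 against 6.9 ± 2.12).

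Against keratinocytes, 5 of these 28 were higher in in vitro iSEPs and 3 in the in vivo iSEPs, against 5.22% and 3.41% of all genes. In each comparison 1 was lower, against 6.12% and 4.08%. Fos was at 39.3 ± 1.17 FPKM in in vitro iSEPs, 15.5 ± 2.54 in keratinocytes and 14.1 ± 4.56 in in vivo iSEPs, and differed between in vitro iSEPs and each of the others (adjusted p = 0.00547 and 0.0126 by limma). Fosl1 was higher in in vitro iSEPs than in keratinocytes (10 ± 5.94, adjusted p = 0.0431 by limma). In in vivo iSEPs Trp63 was higher than in keratinocytes (98.6 ± 50.6 against 34.9 ± 1.9), as was the hedgehog effector gene Gli2 (1.85 ± 0.53 against 0.238 ± 0.189).

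Desmosome and plakin genes, whose proteins anchor keratin filaments at junctions, were listed with other partner genes, and the list moved mostly upward against ADSCs. Of 22, 19 rose and 1 fell against ADSCs for in vitro iSEPs, 19 rose for the in vivo iSEPs and 17 rose for keratinocytes. Among all genes 32.1%, 27.6% and 32.8% rose in that order, and 21.7%, 20% and 20.7% fell. The leading genes were Perp (2864 ± 793 FPKM in in vitro iSEPs against 1.67 ± 0.621), Dsp (desmoplakin, 571 ± 69.1 against 0.33 ± 0.0375) and Sfn, which encodes the 14-3-3 sigma protein that binds keratin 17 (878 ± 189 against 1.36 ± 0.224). Between in vivo iSEPs and keratinocytes 0 of the 22 were called by limma, where 7.48% of all genes were. Between in vitro iSEPs and keratinocytes 5.22% of all genes were higher and 6.12% lower. Of the 22, 2 were higher there, Dsg1a (18.2 ± 16.8 against 1.28 ± 0.841) and Dsp (against 375 ± 1.26). Another 3 were lower, among them Dsg2 (5.54 ± 3.55 against 16.2 ± 1.4) and Pkp2 (4.37 ± 0.918 against 12.7 ± 1.34). Evpl, the envoplakin gene, was lower in in vivo than in in vitro iSEPs (14.4 ± 3.22 against 32.5 ± 11.7).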

How the data were processed

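The authors deposited 1 table of FPKM values with 3 decimals for 24537 genes. The tools named by the submitters' processing notes are STAR 2.5.1b, FastQC 0.11.5 and HOMER, with the mm10 build; per the file headers, HOMER counted exon reads on the transcript strand with 1 entry per gene. Whether the kit marks strand is not stated, so reads of antisense or overlapping genes are uncertain. The table holds 3 further columns of per-sample values, which were not used. Depth came from low values, which are whole multiples of 1 read (tolerance 0.15 reads). FPKM are not counts, so log2(FPKM + 1) was fitted with limma 3.58.1 (R 4.3.3), 4 group means over 12 libraries, for genes that reached 1 FPKM in 3 or more libraries; calls are at adjusted p (Benjamini-Hochberg over all genes kept) below 0.05. Both the limma fit and the permutation test were checked on simulated data.

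Ratios used exact permutation tests, two-sided by their F statistic. Named genes are the 4 members, Krt5, Krt14, Krt1 and Krt10, keratins at 50 FPKM or beside a member, the leading called genes of 3 context lists (3 rising and 2 falling against ADSCs, 2 and 2 otherwise) and the 5 genes most like each member; other genes were chosen after their values were seen. Some genes that the rule names are not reported here. Members and lists were chosen with earlier results of these data known. The same mouse gave each number, per the labels, which pairs libraries; same-mouse pairs had a median correlation of deviations of 0.045, and 6 of 18 exceeded 0.1. Alternatives changed pseudocount, filter, scaling, groups fitted, the mouse block and libraries. Of the members 0 had an entry in the RefSeq promoter table. Coding sequences are from GENCODE M21 (GRCm38, the assembly of mm10), compared with Biopython 1.88.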

Additional observations from a re-analysis of the deposited data

How the results depend on the processing

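Against ADSCs all 4 members were called under each alternative run. Among the epithelial groups, Krt16 in in vitro iSEPs against keratinocytes moved past the threshold with median scaling (log2 difference 1.65, 1 member called, adjusted p = 0.0453 by limma) and with the mouse as replicate block (1.62, 1 member called, adjusted p = 0.0354 by limma). The block changed no other call. Leaving out libraries or mice gave 1.28 to 2.12 for Krt16, with 0 to 1 members called, and adjusted p from 0.0185 to 0.292 by limma; the other alternatives for this difference had adjusted p up to 0.0927 by limma. Leaving out libraries or mice turned the sign of Krt6a in in vitro iSEPs against keratinocytes (-0.41 to 0.10), of Krt6b in in vivo iSEPs against keratinocytes (-0.56 to 1.73) and of Krt17 between both kinds of iSEP (-0.49 to 0.036, the latter without mouse 3). None of these was called. Of the 5 ratios, 3 passed without the in vivo iSEPs of mouse 1. Over the libraries and mice left out, the balance of type II to type I members in keratinocytes minus in vivo iSEPs was 0.62 to 1.08, the share of keratin FPKM in in vivo iSEPs minus keratinocytes 6.53 to 9.58 percentage points, and the ratio to Krt5 plus Krt14 0.47 to 0.70. Without a whole mouse the ratio tests cannot reach 0.05. The mouse block left all 5 ratios short of the threshold. Without the in vivo iSEPs of mouse 3 (chosen after seeing the data) the correlation of Krt6a turned negative with Krt6b (-0.18), Krt16 (-0.085) and Krt17 (-0.13). Depth limits Krt6b and Krt16 in ADSCs, at 1 to 5 and 6 to 14 reads a library.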
